A study of Mus musculus with 4 samples.

Results

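Interferon-responding tumour cells were cells of the T11-Apobec mouse mammary tumours that carried transcripts of Iigp1 (an interferon-induced immunity-related GTPase) or Ubd (the interferon- and TNF-induced ubiquitin-like protein FAT10). They were selected by raw UMIs, the molecule counts of each droplet: at least 3 of Iigp1 and Ubd together, at least 5 of Vim (the mesenchymal filament vimentin), no more than 1 of the neomycin resistance gene, no more than 1 of Csf1r (macrophage receptor), and 0 of Ptprc (CD45), Pecam1, Cdh5 and Rgs5 (vessel genes) and Epcam (epithelial gene). Cells needed at least 2000 UMIs and no more than 10% mitochondrial UMIs. The rule found 460 cells among the 30090 cell barcodes of the series: 341 of 6504 in the treated T11-Apobec library and 119 of 11304 in the untreated one.

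Both libraries came from T11-Apobec mammary tumours of female mice of the strain given as Balbc, and T11 is a mouse mammary tumour model of the claudin-low, mesenchymal kind. Tumour cells had been injected into the mammary gland, and treatment began at a tumour diameter of 5 mm. The treated library was taken after 7 days of anti-PD1 (10 mg/kg) with aCTLA4 (100 µg) biweekly, antibodies against 2 inhibitory receptors of T cells, and the other library came from a tumour given no treatment. The labels give no animal number or age, and each group is 1 library, so every difference here is between 2 libraries and every interval is a 95% interval for counting error alone, without any spread between tumours.

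Cells answer interferons through 2 related routes. Interferon-gamma, made by activated T and NK cells, acts on promoters through GAS elements and through IRF1, and it induces the guanylate-binding proteins (GBPs), the immunity-related GTPases (IRGs), MHC class I and, by way of the coactivator CIITA, MHC class II. Type I interferons signal through the complex ISGF3, which binds the interferon-stimulated response element (ISRE) in front of antiviral genes such as Ifit1, Isg15 and Rsad2. Many genes respond to both, and in tumours the response raises antigen presentation and the chemokines that draw T cells.

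The stretches in front of 6 genes that the results turn on are shown first, with the elements found in each. Each is the 160 bases before the RefSeq transcript start on GRCm38.p6, read 5′ to 3′ on the gene's strand, with capitals marking a match to the ISRE core GAAANNGAAA on either strand. The stretches lie at Gbp2b chr3:142594687-142594846 (plus strand), Ubd chr17:37193732-37193891 (plus strand), H2-DMb1 chr17:34153031-34153190 (plus strand), Ifit1 chr19:34640729-34640888 (plus strand), Isg15 chr4:156200819-156200978 (minus strand) and Rsad2 chr12:26456453-26456612 (minus strand).
Gbp2b: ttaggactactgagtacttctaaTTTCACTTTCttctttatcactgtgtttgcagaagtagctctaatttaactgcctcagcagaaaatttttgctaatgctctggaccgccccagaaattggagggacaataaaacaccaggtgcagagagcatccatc
Ubd: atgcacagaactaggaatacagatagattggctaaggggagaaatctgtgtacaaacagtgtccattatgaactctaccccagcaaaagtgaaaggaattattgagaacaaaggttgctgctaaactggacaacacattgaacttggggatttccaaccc
H2-DMb1: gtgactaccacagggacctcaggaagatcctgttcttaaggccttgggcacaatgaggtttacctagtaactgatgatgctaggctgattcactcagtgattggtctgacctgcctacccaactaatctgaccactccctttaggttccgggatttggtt
Ifit1: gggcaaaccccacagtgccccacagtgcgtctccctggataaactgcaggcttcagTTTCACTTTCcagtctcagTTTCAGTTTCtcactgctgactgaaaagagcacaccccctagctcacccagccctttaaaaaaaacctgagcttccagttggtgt
Isg15: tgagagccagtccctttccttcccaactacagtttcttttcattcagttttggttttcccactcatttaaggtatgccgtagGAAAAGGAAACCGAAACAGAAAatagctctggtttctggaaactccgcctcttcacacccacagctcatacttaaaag
Rsad2: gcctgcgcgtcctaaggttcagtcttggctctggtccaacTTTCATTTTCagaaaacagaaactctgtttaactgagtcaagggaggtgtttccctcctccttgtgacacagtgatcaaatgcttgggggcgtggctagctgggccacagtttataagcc
Ifit1 held matches at bases 104 to 95 and 85 to 76 before its start, Rsad2 1 match at 120 to 111, Gbp2b 1 match at 137 to 128, and Isg15 3 matches that overlap each other between bases 78 and 57. Ubd and H2-DMb1 held neither the ISRE core nor the GAS letters TTCNNNGAA in the longer window of 250 bases before to 50 after the start. In that window the ISRE core stood in 3.43% and the GAS letters in 8.29% of all 32817 RefSeq promoters. Of the listed genes with a RefSeq promoter, the ISRE core was found in 5 of 5 GBPs, 6 of 8 IRGs, 12 of 22 type I response genes and 1 of 10 MHC class II genes. The GAS letters were found in 2 of 5 GBPs, 5 of 8 IRGs, 5 of 22 type I response genes and 1 of 10 MHC class II genes. The ISRE core was thus not particular to the type I response genes, and these counts do not divide the 2 responses. A match describes the letters only, and says nothing of binding.

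The name given to these cells was checked against markers. Levels are given as CPM, the UMIs of a gene per 1000000 UMIs of the set of cells. All 13 tumour and mesenchymal markers (among them S100a4, S100a6, Lgals1, Twist1 and Prrx1) stood at 10 CPM or more in both libraries. Their summed level was 26838 CPM in treated and 29669 CPM in untreated responding cells. Of the 13, Vim and the neomycin resistance gene were part of the rule, and the neomycin gene was at 11.9 and 10.9 CPM. The mesenchymal genes of this list do not by themselves separate tumour cells from fibroblasts. The 5 given markers were not all shared: Iigp1 (702 and 685 CPM), Gbp2b (305 and 264 CPM) and Vim (2131 and 2228 CPM) were close in treated and untreated cells, Ubd was at 324 and 81.3 CPM, and C1s1 (complement C1s) was at 47.7 and 2.05 CPM. Iigp1, Ubd and Vim were part of the rule, so their levels do not test the name. C1s1 marked the treated cells of the state and not the untreated ones. The endothelial markers Pecam1, Cdh5, Kdr, Tie1, Tek and Cldn5 and the pericyte markers Rgs5, Abcc9, Kcnj8 and Higd1b were at 0 in both libraries, and of these the rule itself set Pecam1, Cdh5 and Rgs5. Transcripts of other cells were present at low levels. The 14 macrophage markers summed to 479 CPM in treated and 686 CPM in untreated responding cells, the 11 T cell markers to 98.6 and 87.4 CPM, the 8 NK cell markers to 30.1 and 4.78 CPM, and the 7 B and plasma cell markers to 82.2 and 18.4 CPM. The near-equal T cell sums hide a difference by gene. In treated cells 3 of the 11 reached 10 CPM and 0 were absent. In untreated cells 1 reached it, and Cd3d, Trac, Cd4, Cd8a and Lck were at 0. Trbc2 was found in 40.2% of treated and 32.8% of untreated cells. The 11 fibroblast markers summed to 312 and 605 CPM, mostly Serpinf1 (212 and 429 CPM) and Dcn (48.3 and 113 CPM). A UMI of Cd3d, Cd3e, Cd3g, Cd79a or Cd79b, genes of T and B cells, was found in 138 of 341 treated and 3 of 119 untreated responding cells, and 16 treated cells held 3 or more Cd3 UMIs. Depth differed as well: the median was 23311 UMIs per treated cell (4277 to 56773) and 11193 per untreated cell (3435 to 39641). Of 92 barcodes that occurred in both libraries, 6 belonged to responding cells.

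Responding cells were a larger share of the gated cells in the treated library than in the untreated one. Among cells that met every other limit of the rule, called gate cells here, 341 of 634 (53.8%, 49.8 to 57.7) passed the Iigp1 and Ubd limit in the treated library and 119 of 4773 (2.49%, 2.07 to 2.98) in the untreated one, a ratio of 21.6 (17.5 to 26.8). The intervals are exact binomial ones over the cells of 1 library each and say nothing of other tumours. The gate itself was smaller after treatment, at 14.1% against 51.9% of all cells that passed the depth and mitochondrial filters, so responding cells were 7.57% and 1.29% of those cells, a ratio of 5.85 (4.73 to 7.27). The treated gate was also less pure. Of its 211 cells with no Iigp1 or Ubd UMI, 121 held 3 or more Cd3 UMIs, against 12 of 4210 in the untreated gate, and their median depth was 6374 UMIs. Among gate cells with at least 8000 UMIs the treated share was 70.1% of 481 cells and the untreated share 2.35% of 3865. With every gate cell thinned to 2000 UMIs and 1 UMI required, the shares were 41.5% and 3.75%, a ratio of 11.1.

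**Figure D1:**
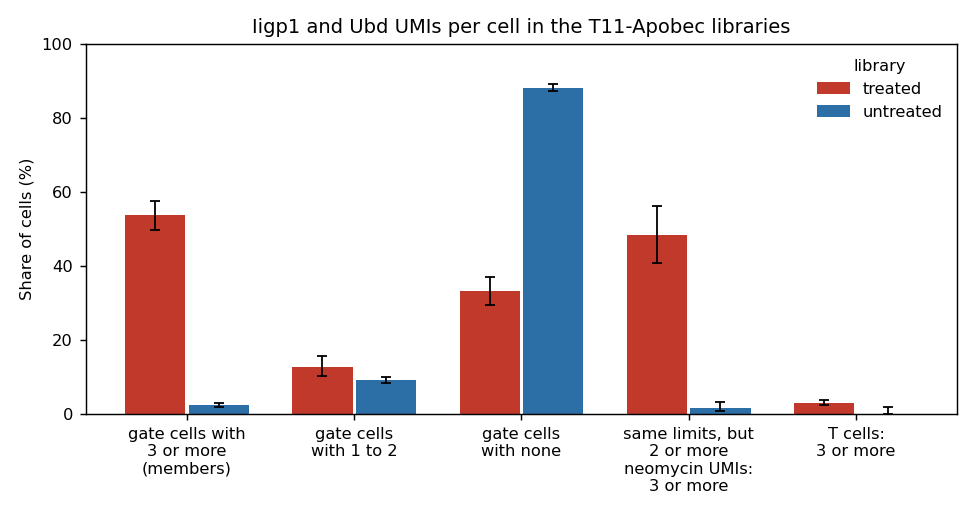
Share of cells (%) by their Iigp1 and Ubd UMIs in the treated (red) and untreated (blue) library, with exact 95% binomial intervals for counting error. Bars show gate cells with 3 or more, 1 to 2 or none, cells with 2 or more neomycin UMIs that otherwise passed the gate, and T cells (3 or more Cd3 UMIs) outside the state; the treated gate stands at 53.8% and the untreated gate at 2.49%.

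The same split was seen in cells with the neomycin transcript. Where 2 or more neomycin UMIs were present and the other limits held, 84 of 173 treated cells (48.6%, 40.9 to 56.3) and 12 of 646 untreated cells (1.86%, 0.963 to 3.22) had 3 or more Iigp1 and Ubd UMIs. Among the responding cells 71.0% of treated and 86.6% of untreated ones held no neomycin UMI at all. T cells, which show how far free RNA reaches into droplets, carried 3 or more Iigp1 and Ubd UMIs in 81 of 2596 treated cells outside the state (3.12%) and in 0 of 194 untreated ones, which allows a share of up to 1.55%. T cells were shallower, at medians of 4685 and 3754.5 UMIs.

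The strength of the response, which the rule used, overlapped widely between the libraries. Per 10000 UMIs, Iigp1 and Ubd together had a median of 7.05 in treated cells (0.528 to 57.2) and 6.22 in untreated cells (1.01 to 49.6). Iigp1 was detected in 96.5% of treated and 97.5% of untreated cells, but Ubd in 80.9% and 28.6%. At the limit itself, the 19 treated and 31 untreated cells with exactly 3 UMIs had Gbp2b at 51.4 and 32.5 CPM, and the 33 and 72 gate cells with exactly 2 UMIs, just outside, had it at 58.0 and 44.7 CPM. The limit thus runs through a continuous range of levels.

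Within each library, responding cells were compared with the gate cells without an Iigp1 or Ubd UMI, to show what goes with the 2 genes of the rule. The rule fixed both sides, so these values are a description. In the untreated library, where the gate was nearly free of T cells, 18.1% of 12661 genes with 20 or more UMIs were over 1.5-fold higher and 11% over 1.5-fold lower in responding cells. The interferon families stood far above that: 7 of 7 GBPs and 7 of 7 IRGs with enough UMIs were higher, at median log2 ratios of 4.19 and 5.09, beside 0.06 over all genes. Gbp2b, which coats the vacuoles of intracellular pathogens, was at 264 CPM in responding and 7.79 CPM in other cells. Irf1, a transcription factor that interferon-gamma induces, was at 94.96 and 29.1 CPM. Of the type I response list 23 of 25 genes were higher (median log2 2.87), with Isg15 at 229 and 27.2 CPM and Ifit1 at 186 and 9.14 CPM. MHC class I presentation was higher for 20 of 22 genes (median log2 1.33), among them the peptide transporter Tap1 at 105 and 7.30 CPM and the immunoproteasome subunit Psmb9 at 175 and 31.1 CPM. The 14 subunits of the constitutive proteasome, which interferon does not induce, had 0 past 1.5-fold in either direction, at a median of -0.08.

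In the treated library 16.4% of 10984 genes were over 1.5-fold higher and 14.5% over 1.5-fold lower in responding cells. All 9 GBPs and all 8 IRGs with enough UMIs were higher, at median log2 ratios of 1.96 and 2.51, beside 0.03 over all genes. The comparison cells carried T cell markers at a summed 2430 CPM and macrophage markers at 3361 CPM. Without cells that held a lymphocyte UMI or more than 5 macrophage UMIs (C1qa, C1qb, C1qc and Lyz2) per 10000, which left 201 responding and 33 other cells, the medians were 3.67 for GBPs and 3.68 for IRGs. Under that limit MHC class I presentation had a median of 1.31 in place of 0.51, and complement 3.66 in place of 1.60. The complement value depends on the 0.5 UMIs added to each side, so its size is uncertain. C1s1, C3, C4b and Serping1 had 252, 124, 108 and 132 UMIs in the responding cells and 0 in the 33 others. The checkpoint list (PD-1 ligands and other inhibitory molecules) changed sign, from -0.60 to 0.24.

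MHC class II followed the state in the treated cells more clearly once those cells were left out. The list median for responding over other cells was 0.35 in the treated library, with 5 of 10 genes higher and 2 lower, and 2.14 under the limit. Cd74, the invariant chain that guides class II molecules, was then at 2272 CPM in responding and 339 CPM in other treated cells. In the untreated library the same list had 4 of 9 genes higher (median 0.33, or 0.86 under the limit), with Cd74 at 120 and 19.9 CPM under the limit. Ciita, the class II coactivator, was at 11.6 CPM in untreated responding cells (17 UMIs) and 0.655 CPM in other untreated gate cells.

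The genes that stood highest in responding cells of both libraries by the naming rule, taken over all comparison cells, were Cxcl10, Gbp2b, Cxcl9, Gbp2, Ly6a, Gbp3, Ly6c1, Fst, Oasl2 and Ccl2. Cxcl9 and Cxcl10, ligands of the T cell receptor CXCR3, were at 126 and 142 CPM in treated and 107 and 305 CPM in untreated responding cells. In other gate cells Cxcl9 was at 14.2 CPM (treated) and 0.797 CPM (untreated), and Cxcl10 at 5.12 and 9.47 CPM. Ly6a, the interferon-induced surface protein Sca-1, was at 998 CPM in treated and 254 CPM in untreated responding cells, against 184 and 8.41 CPM. Under the limit on lymphocyte and macrophage transcripts the other treated gate cells had less: Ly6a was at 74.2 CPM in them, Cxcl9 at 2.56 CPM from 2 UMIs and Fst at 12.8 CPM. Igtp, which the rule did not pick, was under that limit at 214 and 7.68 CPM in treated and 155 and 3.05 CPM in untreated responding and other cells, a larger ratio than that of Gbp3 or Ccl2 in both libraries. Ccl2, the monocyte chemokine, was at 271 and 148 CPM against 55.1 and 33.2 CPM. Fst (follistatin, an activin antagonist) was at 123 and 53.3 CPM against 23.2 and 6.32 CPM.

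The genes that stood lowest in responding cells of both libraries were Tuba4a, Tmem171, Sec11c, Cdc20, Fabp5, Pim3, Aif1l, Cdca8, Ankrd1 and Msln. Fabp5, a fatty acid carrier, was at 373 CPM in treated and 191 CPM in untreated responding cells against 564 and 506 CPM in other gate cells. Cdc20, which starts the exit from mitosis, was at 70.6 and 36.9 CPM against 121 and 103 CPM. Cell cycle genes were lower as a list in both: 14 of 25 passed 1.5-fold downward and 0 upward in the treated library (median log2 -0.63), and 15 of 25 downward and 0 upward in the untreated one (-0.64). Under the limit on lymphocyte and macrophage transcripts these medians were -0.80 and -0.77. Extracellular matrix genes were higher, with 16 of 18 in treated (median 1.33, or 0.91 under the limit) and 8 of 20 in untreated cells (0.51).

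**Figure D2:**
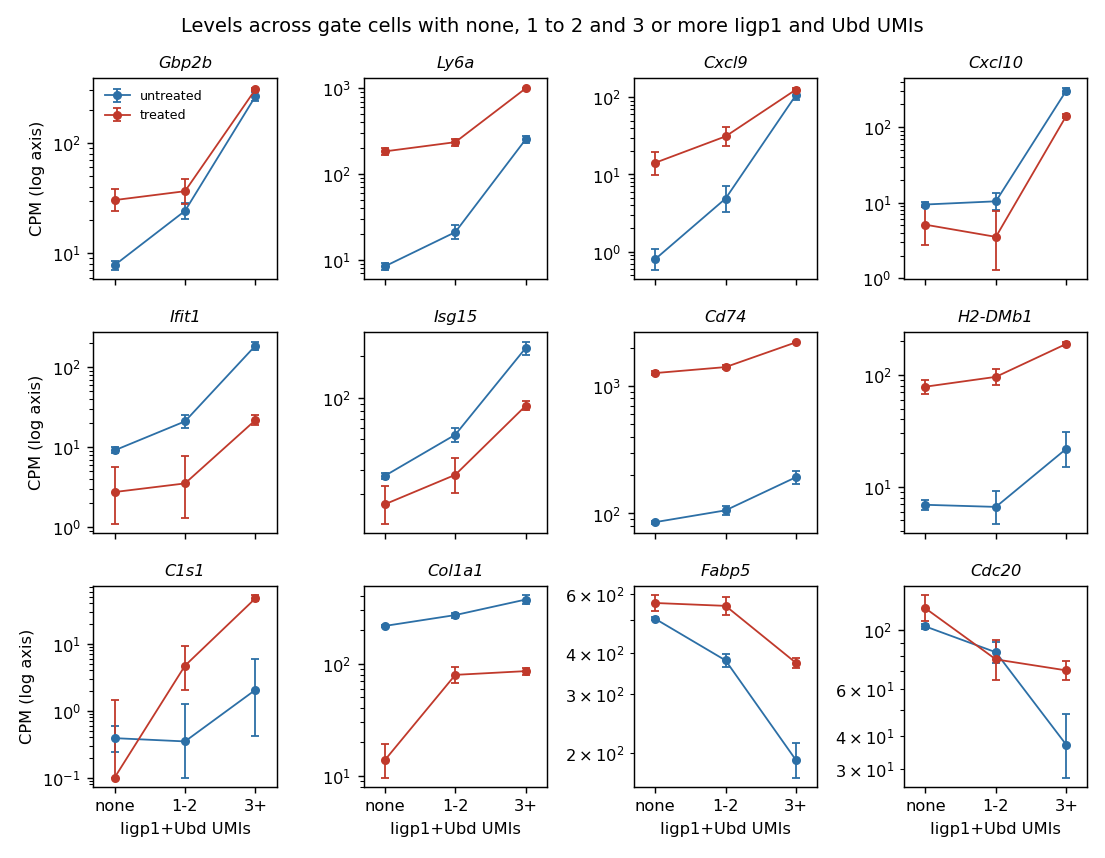
Level (CPM, log axis, with exact 95% Poisson intervals) of 12 genes in gate cells with none, 1 to 2 and 3 or more Iigp1 and Ubd UMIs, treated in red and untreated in blue; a value of 0 is drawn at the bottom of its axis. Gbp2b and Cxcl9 meet at the right (305 and 264 CPM, 126 and 107 CPM), Ifit1 and Isg15 are higher in untreated cells, and Cd74, H2-DMb1 and C1s1 are higher in treated cells.

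The main comparison set treated against untreated responding cells. Of 10533 genes with 20 or more UMIs over both sets, 12.1% were over 1.5-fold higher and 14.4% over 1.5-fold lower in treated cells, and the median log2 ratio of all genes was -0.05. Both GTPase families that mark the state were somewhat higher in treated cells. Among GBPs 3 of 9 were higher and 0 lower (median log2 0.56), with Gbp2b at 305 CPM in treated and 264 CPM in untreated cells, Gbp7 at 130 and 122 CPM, and Gbp4 at 187 and 77.9 CPM. After thinning each cell to 2000 UMIs, Gbp4 was found in 23.5% of treated responding cells (19.1 to 28.3) against 21.3% of T cells in that library. In the untreated library these shares were 10.9% and 11.3%, so neither stood clearly above the T cell level. How much of the Gbp4 in T cells was their own and how much free RNA was not tested. Among IRGs 4 of 8 were higher and 0 lower (median 0.63), with Ifi47 at 113 and 106 CPM and Igtp at 204 and 148 CPM, and the largest ratio for Tgtp1 at 30.2 and 9.56 CPM. With gate cells thinned to 2000 UMIs before the selection, the medians were 1.10 for GBPs and 1.44 for IRGs. Tgtp1 and Tgtp2 are near-identical copies, as are H2-Q6 and H2-Q7 and Ifit3 and Ifit3b, so the split of reads within each pair is uncertain. Between cells with 3 to 10 Iigp1 and Ubd UMIs per 10000, 134 treated and 62 untreated, the GBP median was -0.20, so the GBP difference had the other sign there.

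Most signalling genes did not pass 1.5-fold. Irf1 was at 120.0 CPM in treated and 94.96 CPM in untreated cells, and the interferon-gamma receptor chains Ifngr1 and Ifngr2 at 83.3 and 95.6 CPM and at 113 and 161 CPM. In the interferon-gamma signalling list 2 of 14 genes were higher and 1 lower (median -0.23). Those higher were Socs1, the feedback inhibitor of JAK kinases, at 77.3 and 35.5 CPM (log2 1.11, 0.71 to 1.56) and Batf2, an interferon-induced transcription factor, at 17.5 and 4.78 CPM. Irf7, which amplifies the type I response, was lower in treated cells, at 13.5 and 41.0 CPM. Of 6 genes for the type I receptor and ISGF3, 0 were higher and 2 lower (median -0.09).

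MHC class II held the largest list difference. Of 9 measured genes 8 were higher in treated cells and 0 lower, at a median log2 ratio of 3.04, and the summed level of the list was 4338 CPM against 493 CPM. Cd74 was at 2199 CPM in treated (2167 to 2231) and 193 CPM in untreated cells (171 to 216), a log2 ratio of 3.51 (3.34 to 3.69). H2-DMb1 and H2-DMa, the subunits of the peptide exchanger H2-M, were at 189 and 157 CPM against 21.9 and 24.6 CPM. The chains of the class II molecules themselves, H2-Aa, H2-Ab1 and H2-Eb1, were at 638, 460 and 586 CPM against 77.2, 67.6 and 51.2 CPM. H2-DMb2 had 247 UMIs in treated and 0 in untreated cells, at least 14.4-fold higher when the untreated side is set to 3 UMIs over the group. Ciita was at 32.5 and 11.6 CPM (log2 1.44, 0.78 to 2.28). Ctss, a protease that macrophages also make in abundance, was at 46.4 and 46.5 CPM. Class II was also higher in treated than in untreated other gate cells, under the limit on lymphocyte and macrophage transcripts. There Cd74 was at 339 and 19.9 CPM, H2-DMb1 at 30.7 and 2.32 CPM, and H2-Aa at 155 and 18.8 CPM. H2-Ab1 was at 85.7 and 15.0 CPM, and H2-Eb1 at 88.3 and 12.1 CPM. The treated side held 33 cells. The class II difference was thus not particular to the responding cells.

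Macrophages and B cells make much class II RNA, so its level was set against that of macrophage genes. No such ratio was taken to B cell genes. Igkc, an immunoglobulin chain of B and plasma cells, had 533 UMIs in treated and 15 in untreated responding cells. It was found in 73.6% and 1.68% of them, and the part of B cell RNA in the class II level was not tested. The ratio of Cd74 UMIs to those of the macrophage genes C1qa, C1qb and C1qc was 13.5 in treated responding cells, against 1.49 in T cells of the same library. In untreated responding cells it was 0.803, against 0.739 in T cells of that library. Within the macrophage limit, which takes out cells by these same C1q genes and so lifts the ratio, it was 46.4 in treated and 2.40 in untreated responding cells. After thinning each cell to 2000 UMIs, 83.0% of treated responding cells (78.6 to 86.8) and 18.8% of T cells in the same library had a Cd74 UMI. In the untreated library these shares were 16.0% (9.90 to 23.8) and 22.2%. The untreated share was thus not above that of T cells, although the Cd74 level in untreated responding cells was above that in other gate cells under the limit on lymphocyte and macrophage transcripts, as given before. H2-DMb1 gave 29.9% against 5.09% in the treated library and 4.20% against 8.76% in the untreated one. H2-DMb2, at 4.69% (2.71 to 7.51) against 3.22% in treated T cells, was not above that level after thinning. The list median was 3.91 within the macrophage limit, 3.02 without cells that held a lymphocyte UMI, 4.46 between cells of 8000 to 20000 UMIs (104 treated and 78 untreated) and 2.20 with each cell thinned.

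MHC class I presentation was higher by less. Of 22 genes 13 were higher and 0 lower (median log2 0.72). H2-D1 was at 3733 and 1980 CPM, H2-K1 at 1008 and 641 CPM, and B2m, the shared light chain, at 7704 and 5582 CPM. The immunoproteasome subunits Psmb8, Psmb9 and Psmb10 were at 1016, 402 and 298 CPM against 529, 175 and 172 CPM. The transporter genes Tap1 and Tap2 were near equal, at 109 and 105 CPM and at 78.9 and 77.2 CPM. Of the constitutive proteasome subunits 0 of 14 passed 1.5-fold. Other gate cells under the limit on lymphocyte and macrophage transcripts also had more class I RNA in the treated library. There H2-D1 was at 1569 and 712 CPM, B2m at 3998 and 2767 CPM, and Psmb8 at 425 and 142 CPM.

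The type I response list went the other way. Of 23 measured genes 11 were lower and 2 higher in treated cells (median log2 -0.34), beside 14.4% lower and 12.1% higher over all genes. Ifit1, which binds viral RNA ends, was at 21.8 CPM in treated (18.8 to 25.2) and 186 CPM in untreated cells (164 to 209), a log2 ratio of -3.09 (-3.37 to -2.82). Isg15, the ubiquitin-like antiviral modifier, was at 87.4 and 229 CPM (log2 -1.39, -1.58 to -1.20). Oasl1, Rsad2 and Mx1 were lower as well, at 2.04, 3.84 and 2.40 CPM against 18.4, 21.9 and 13.0 CPM. Bst2 (tetherin) and Zbp1 (a sensor of Z-form nucleic acids) were the 2 higher ones, at 299 and 130 CPM against 132.5 and 60.8 CPM. After thinning, Bst2 was found in 40.8% and Zbp1 in 22.9% (18.5 to 27.7) of treated responding cells. In T cells of that library these shares were 15.9% and 17.65%. Of the lower genes with a RefSeq promoter 6 of 8 held the ISRE core and 0 of 8 the GAS letters. Over the whole type I list these counts were 12 of 22 and 5 of 22. Whether either element goes with the lower level was not tested. The list median was -0.07 between cells of 8000 to 20000 UMIs, where Ifit1 stayed at -2.34 and Isg15 at -1.28, and -0.93 between cells with 3 to 10 Iigp1 and Ubd UMIs per 10000.

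A few cells carried much of that difference. The 12 untreated cells with the most Ifit1 held 86.4% of its UMIs, and the 12 with the most of the whole type I list held 47.4%, against 31.8% in the top 35 of 341 treated cells. As a share of each cell's UMIs the list had a median of 0.0787% in treated cells (0.0106% to 0.885%) and 0.0674% in untreated cells (0 to 1.86%), so the middle cell differed little while the highest untreated cells reached further. Ifit1 was detected in 21.99% of treated and 26.9% of untreated cells, and in 4.69% and 11.8% after thinning to 2000 UMIs, beside 2.49% and 5.67% of T cells. Class II was spread more evenly after treatment: the median cell gave 0.347% of its UMIs to the list in treated cells (0 to 8.25%) and 0.00903% in untreated cells (0 to 6.16%). The top 35 treated cells held 31.4% of class II UMIs, and the top 12 untreated cells held 74.0%.

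**Figure D3:**
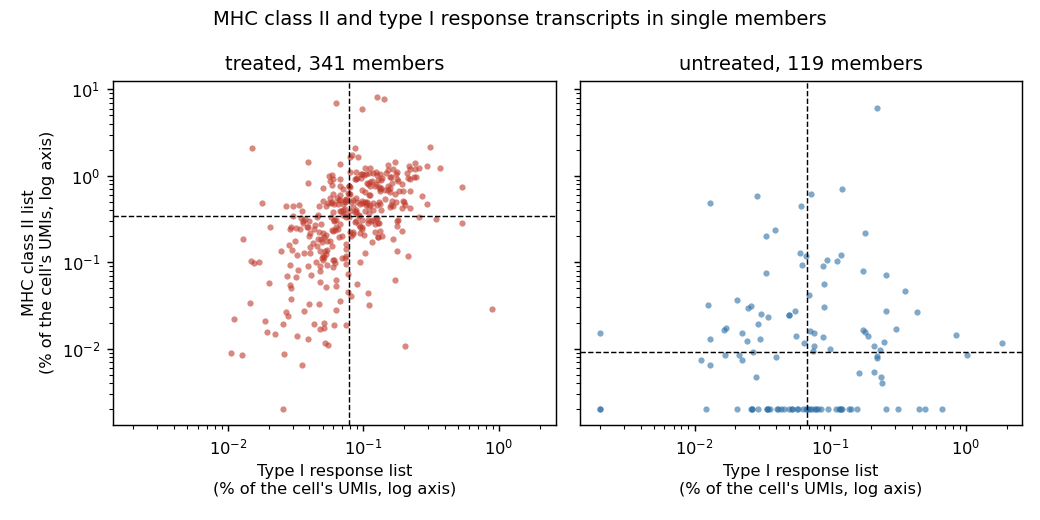
Each point is 1 responding cell, with the share of its UMIs in the type I response list (x axis, %, log) and in the MHC class II list (y axis, %, log); dashed lines are medians and a share of 0 is drawn at the axis floor. The treated cells (left, 341) centre at 0.0787% and 0.347%, and the untreated cells (right, 119) centre at 0.0674% and 0.00903%.

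Across treated cells the class II and type I shares moved together, with a Spearman rho of 0.55 over 341 cells, and across untreated cells they did not, at 0.01 over 119. Class I and class II shares gave 0.72 and 0.36, and the type I share against Iigp1 and Ubd 0.68 and 0.40. Cell cycle share against Iigp1 and Ubd gave -0.28 and -0.17. These are descriptions: the cells share a library and its free RNA, and the untreated cells hold fewer UMIs. With 722 class II UMIs over the untreated cells, a low rho there can say little.

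Levels also differed with response strength within the treated library. From the 75 treated cells under 3 Iigp1 and Ubd UMIs per 10000, through the 134 with 3 to 10, to the 132 above 10, Cd74 stood at 1174, 1844 and 3332 CPM. Cxcl9 stood at 18.5, 41.5 and 298 CPM, C1s1 at 11.4, 38.8 and 83.7 CPM and Ifit1 at 2.85, 10.9 and 47.6 CPM. In the untreated library the 30, 62 and 27 cells of those ranges had Cd74 at 140, 196 and 288 CPM, Cxcl9 at 11.7, 49.3 and 450 CPM, and Ifit1 at 125, 88.4 and 565 CPM. In each range Cd74 was higher in treated and Ifit1 in untreated cells.

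Complement genes were also higher as a list in treated than in untreated responding cells. Of 11 measured genes 5 were higher and 1 lower, at a median log2 ratio of 1.63 (0.55 with genes at 0 set to their bound), and the summed level was 183 against 60.1 CPM. C1s1, a protease of the first complement component, had 398 UMIs in treated and 3 in untreated cells, a log2 ratio of 4.32 (2.98 to 6.82). C3, the central component, had 214 and 1 (log2 4.65, 2.74 to 10.5). C4b had 187 and 0, at least 10.9-fold higher with the untreated side set to 3 UMIs. C1ra, the partner protease of C1s, was at 20.9 and 3.42 CPM. After thinning, C1s1 was found in 12.02% of treated cells (8.77 to 16.0) against 0.153% of T cells, and in 0 of 119 untreated cells, which allows up to 2.52%. C4b and C3 were each found in 5.57% of treated cells, against 0.995% and 1.03% of T cells. Over all filtered treated cells, the responding cells had 3.43 times the C1s1 level, 1.04 times that of C4b and 0.565 times that of C3. C3 is also one of the fibroblast markers, and C3 and C4b were not particular to the state. The top 35 treated cells held 57.3% of C1s1, 67.9% of C4b and 76.6% of C3 UMIs.

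Chemokines split by gene. Of 12 measured genes 5 were higher and 3 lower in treated cells (median log2 0.37). Cxcl9 was at 126 and 107 CPM, while Cxcl10 was lower at 142 and 305 CPM (log2 -1.11, -1.27 to -0.95). Few cells set these levels: 12 untreated cells held 94.9% of the Cxcl9 and 85.5% of the Cxcl10 UMIs. Cxcl9 was found in 35.5% of treated and 13.4% of untreated cells, and Cxcl10 in 32.0% and 28.6%. Cxcl1, a chemokine for neutrophils, was lower at 39.6 and 99.7 CPM. Cxcl5, another, was lower at 8.51 and 35.5 CPM, but its 52 untreated UMIs lay in 1.68% of the cells, and between cells of 8000 to 20000 UMIs the log2 ratio was 1.68 and its sign the other way. Ccl2 was higher at 271 and 148 CPM, Cxcl12 (a stromal chemokine) at 405 and 202 CPM, and Csf1, the macrophage growth factor, at 99.4 and 46.5 CPM. Ccl8 was at 73.0 and 8.88 CPM. The 35 treated cells with the most Ccl8 held 77.8% of its UMIs, up to 164 in 1 cell, and after thinning it was found in 7.04% of them against 7.70% of T cells, so that share was not above the T cell level. Ccl5, which T cells make themselves, was at 486 and 639 CPM.

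The checkpoint genes as a list stood near the share of all genes. Of 10 measured genes 2 were higher and 1 lower (median log2 -0.02), beside 12.1% higher and 14.4% lower over all genes. Cd274, which encodes the PD-1 ligand PD-L1, had 37 UMIs in treated and 6 in untreated cells, at 4.43 and 4.10 CPM, and was found in 8.21% and 4.20% of cells. The 2 higher genes were Ido1 and Arg1. Ido1, the tryptophan-degrading enzyme, had 37 and 0 UMIs, at least 2.16-fold higher with the untreated side set to 3 UMIs. Arg1 had 48 and 1 UMIs, and its level in treated responding cells was 0.0267 times that over all filtered treated cells. Cd200, a ligand that restrains myeloid cells, was lower at 41.1 and 113 CPM. Of the cell death list 5 of 21 were higher and 0 lower, among them Apol6 at 16.5 and 2.73 CPM and Casp1, the inflammasome protease, at 9.71 and 2.73 CPM. Of 15 NF-kB targets 1 was higher and 3 were lower (median -0.14), with Ier3 at 32.2 and 152 CPM and Saa3 at 14.3 and 52.6 CPM. The counts of the cell death and NF-kB lists stand beside the same 12.1% and 14.4% of all genes. All 77 untreated Saa3 UMIs lay in 1 cell, which held a lymphocyte UMI, and without such cells the log2 ratio was 5.81, so its lower call rests on that cell.

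**Figure D4:**
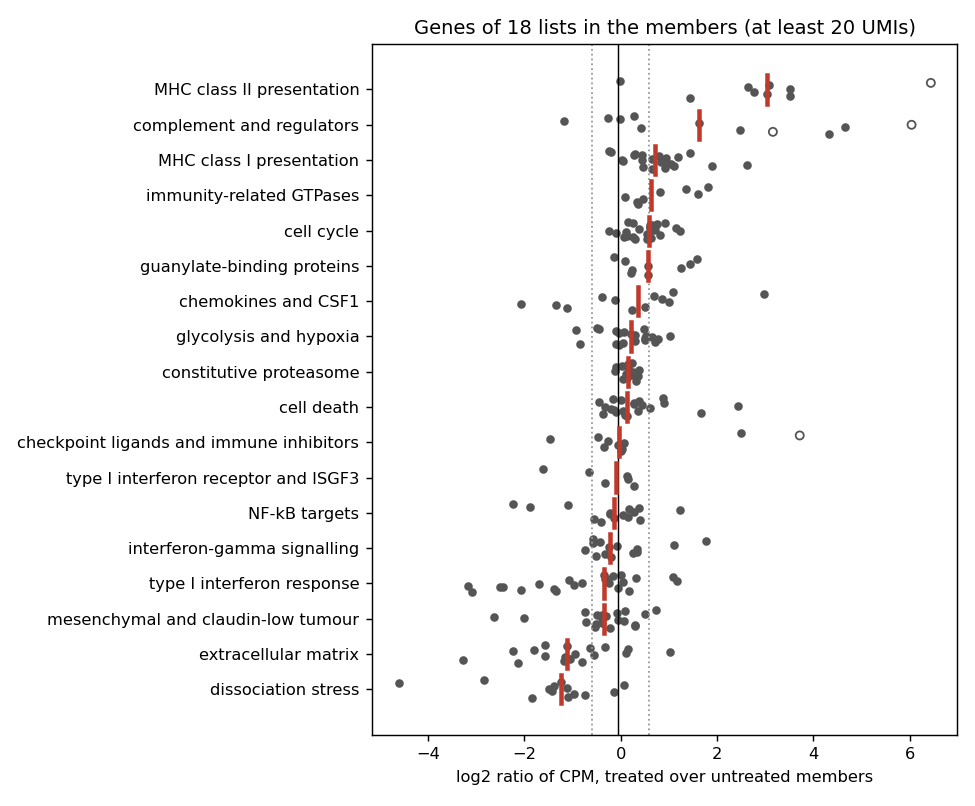
Log2 ratio of CPM, treated over untreated responding cells, for each gene with at least 20 UMIs in 18 lists (grey points; open points had 0 UMIs on 1 side), with list medians in red, 1.5-fold as dotted lines and the median of all genes (-0.05) as a black line. MHC class II (3.04) stands at the top and extracellular matrix (-1.11) and dissociation stress (-1.24) at the bottom.

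Beyond the interferon genes, treated responding cells had lower levels of matrix and contractile genes. Of 19 extracellular matrix genes 14 were lower and 1 higher (median log2 -1.11), with Col1a1 at 85.8 and 374 CPM, Tnc at 38.1 and 180 CPM, and Sparc at 802 and 1553 CPM. Of 20 mesenchymal tumour genes 1 was higher and 4 were lower (median -0.34). Acta2, the smooth muscle actin of contractile cells, was at 52.0 and 320 CPM, and Myl9, a myosin light chain, at 4.67 and 38.3 CPM. Aspn, a small matrix proteoglycan, was at 20.4 and 200 CPM, and Igfbp5, which binds insulin-like growth factors, at 29.1 and 259 CPM. Fibroblast markers were lower beside them (312 and 605 CPM), and their part in the result was not tested. Between cells of 8000 to 20000 UMIs the list median was -0.13, Col1a1 was at -0.47 and Acta2 at -1.97, so the list was close to equal in that range while Acta2 was still lower. Depth was nearer but not matched there, at medians of 15961 UMIs in treated and 11915 in untreated cells. Other gate cells, under the limit on lymphocyte and macrophage transcripts (33 treated and 3891 untreated), differed in the same direction for the genes named here. In them Col1a1 was at 17.9 CPM in treated and 215 CPM in untreated cells, and Tnc at 28.15 and 129 CPM. Sparc was at 487.5 and 1159 CPM, and Acta2 at 14.1 and 220 CPM. These differences were thus not particular to the responding cells.

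The dissociation stress list, immediate early genes that tissue digestion can induce, was lower in treated cells for 11 of 13 genes and higher for 0 (median log2 -1.24). Fos was at 148 and 534 CPM and Egr1 at 56.2 and 151 CPM. The median was -0.59 between cells of 8000 to 20000 UMIs. The lowest named genes also held Btg2 and Nr4a1, both immediate early genes, at 16.4 and 8.39 CPM against 118 and 61.5 CPM, and Hspb1, a small heat shock protein, at 3.48 and 86.1 CPM. The top 12 untreated cells held 95.2% of the Hspb1 UMIs. Mest, an imprinted gene, and Ptn (the growth factor pleiotrophin) were at 1.08 and 2.88 CPM against 41.7 and 42.4 CPM. Cdh15, a muscle cadherin, was at 24.1 and 130.5 CPM, and Rcn3, a calcium-binding protein of the secretory pathway, at 7.55 and 43.7 CPM. The genes named in this paragraph were also lower in treated than in untreated other gate cells, under the limit on lymphocyte and macrophage transcripts. There Fos was at 133 and 357 CPM, Egr1 at 49.9 and 106 CPM, and Btg2 at 21.75 and 73.2 CPM. Mest was at 0 and 19.0 CPM, and Cdh15 at 24.3 and 50.4 CPM. Their lower level was thus not particular to the responding cells.

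Cell cycle genes were higher over all responding cells but not in the narrower depth range. Of 25 cell cycle genes 12 were higher and 0 lower (median log2 0.58), with Stmn1 at 172 and 73.1 CPM, while Mki67, at 23.4 and 15.7 CPM, did not pass 1.5-fold. The median was -0.05 between cells of 8000 to 20000 UMIs. Glycolysis and hypoxia genes, with 4 of 21 higher and 2 lower (median 0.21), stood near the 12.1% and 14.4% of all genes, with Eno1 at 190 and 93.6 CPM and Tpi1 at 524 and 307 CPM. Ly6a, at 998 and 254 CPM, was found in 95.9% of treated and 45.4% of untreated cells, and after thinning in 68.0% and 18.5%, beside 32.1% and 17.0% of T cells, which make it too. Esm1, a secreted proteoglycan, was at 69.0 and 13.7 CPM. Tubb3, a tubulin best known from neurons, had 106 and 0 UMIs (at least 6.198-fold higher), with 90.6% of them in 35 of the cells. Insl6 had 85 UMIs against 0, and after thinning was found in 2.35% of treated cells, against 4.86% of T cells, so it is not read as above the T cell level.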

How the data were processed

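The authors deposited filtered matrices of UMI counts per gene and barcode for 4 libraries made with the 10x Genomics Single Cell 3' v2 kit; the file headers name Cell Ranger 3.0.2, and the submitters' processing notes name the build mm10. The 2 KPB25Luv libraries were not used here. The 31054 features include 1 added sequence, NeomycinResistanceGene, and features of 1 symbol were summed. The members and lists were chosen with earlier results of these data known. Counts were summed over the cells of each set and library (8344592 UMIs in treated and 1463850 in untreated responding cells) and divided by the set's total to give CPM, with exact Poisson intervals. Log2 ratios have 0.5 UMIs added to each side and an exact conditional interval, which was tested on simulated data. A gene is called higher or lower past 1.5-fold with at least 20 UMIs over both sides, and no p-value is given. Shares have Clopper-Pearson 95% intervals. Intervals and the limits for a count of 0 (3 counts) cover counting error only.

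The 12 highest and 12 lowest genes between treatments, and the 10 highest and 10 lowest within both libraries, were named by the interval end nearest to 0, given at least 50 UMIs, detection in 10% of cells and a CPM of at least 0.5 times that over all filtered cells. Genes of the rule and mitochondrial, ribosomal, haemoglobin, histone, immunoglobulin, T cell receptor, sex-specific and unnamed genes were left out; other named genes lead their lists. Lists held 304 genes in 18 lists, of which 4 had no feature. Doublets were kept: Scrublet (scanpy 1.11.5) marked 3 of 6504 treated barcodes, too few to have worked, so removing the highest scores (0.8% per 1000 barcodes) is an alternative. Python 3.11.15, numpy 2.4.6 and scipy 1.17.1 were used. Other alternatives changed the threshold, thinning, filters, scaling and cell sets; those on macrophage and lymphocyte transcripts, on 8000 UMIs and on 3 to 10 Iigp1 and Ubd UMIs per 10000 were chosen after seeing the data. Aligner settings and introns are not given in the sources used here. Values of a few genes that the naming rule picked are not reported here.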

Additional observations from a re-analysis of the deposited data

How the results depend on the processing

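With 1 library per group, no alternative says how the values would vary between tumours. Of 435 values recomputed under an alternative, 352 stayed within their counting error or within 1.5 times a count, 80 moved and 3 changed sign; the cause was not tested. The treated share of the gate was 44.3% with at least 6 Iigp1 and Ubd UMIs, 41.5% with gate cells thinned, 49.8% with no neomycin UMI, 49.1% with up to 5% mitochondrial UMIs, 58.2% within the macrophage limit, 70.1% with at least 8000 UMIs and 66.3% with no lymphocyte UMI. The untreated share was 1.34% and 3.75% under the first pair of these, and the ratio of shares 33.0, 11.1 and, with at least 8000 UMIs, 29.8.

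Between treatments, with at least 6 UMIs the medians were 0.25 for GBPs and 3.87 for MHC class II. With gate cells thinned they were 1.10 for GBPs, 1.44 for IRGs, 1.01 for MHC class I and 2.53 for class II. Class II was 3.91 within the macrophage limit, 4.46 between cells of 8000 to 20000 UMIs, 2.31 between cells with 3 to 10 Iigp1 and Ubd UMIs per 10000, 2.20 with each cell thinned and 2.45 with cells weighted the same. Complement was 3.26 without lymphocyte UMIs, 4.88 between cells of 8000 to 20000 UMIs and 3.97 with each cell thinned. These complement values rest on genes at or near 0 UMIs in untreated cells and on the 0.5 UMIs added, so their size is uncertain. The main median of 1.63 was 0.55 with genes at 0 set to their bound. GBPs were at -0.20 and the type I response at -0.93 between cells with 3 to 10 per 10000. Genes higher numbered 655 with each cell thinned and 2067 with at least 1 UMI per gene, against 1277, and genes lower 943 and 4130, and 737 between cells of 8000 to 20000 UMIs, against 1518; fewer UMIs or a lower limit change how many genes can pass.

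For treated responding over other gate cells, medians with at least 8000 UMIs were 3.17 for GBPs, 3.46 for IRGs, 0.93 for class I, 1.12 for class II and 0.33 for the checkpoint list. Within the macrophage limit they were 2.31 for class II, 3.15 for complement and 0.16 for the checkpoint list, and without lymphocyte UMIs as well 3.67, 3.68, 1.31, 2.14 and 3.66 for GBPs, IRGs, class I, class II and complement and 0.24 for the checkpoint list. The complement value of 3.66 depends on genes with 0 UMIs in the other cells, as given before. For untreated cells class II was 0.72 and 0.86 under these limits and GBPs 4.55 under the second. No paired analysis was possible because each group is 1 library and no result comes from a test.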
